A study of Homo sapiens with 10 samples.

Results

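The 36 genes described here encode the enzymes that build cholesterol and fatty acids, the proteins that set the activity of this pathway, and the proteins that carry sterols out of or through the cell. They were taken by name, as the protein-coding rows of the deposited expression tables that carry one of 36 listed symbols, and all 36 were found among the 60603 gene rows of each table. The rule itself used no measured value. The levels come from mRNA-seq of NB4, a human cell line derived from acute promyelocytic leukemia, in 2 experiments. In the GSE1 knockdown experiment, cells were transduced with the lentiviral vector pLKO.1 puro, either empty (EV) or carrying the short hairpin shA1 or shB2 against GSE1, and RNA was taken after 48 h. In the LSD1 inhibitor experiment, cells that the labels do not describe as transduced were treated for 24 h with DMSO or with 2 µM MC2580, an inhibitor of the histone demethylase LSD1. Each of the 5 conditions has 2 replicates, which makes 6 libraries in the knockdown experiment and 4 in the inhibitor experiment, and all come from 1 cell line.

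Cholesterol is made from acetyl-CoA through mevalonate, the isoprenoid diphosphates, squalene and lanosterol. Fatty acids are made from the same precursor by ATP citrate lyase, acetyl-CoA carboxylase and fatty acid synthase, and then lengthened and desaturated. Most of these genes are known targets of the SREBP transcription factors, membrane proteins that SCAP escorts out of the endoplasmic reticulum when sterols are low and that INSIG proteins hold back when sterols are high. The LXR receptors respond to excess sterol and drive export through ABC transporters.

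The unit throughout is the base mean, the authors' average over all libraries of an experiment of read counts divided by library size factors. A base mean joins the control and the treated libraries, so the values below are levels of the pathway in each experiment and not effects of GSE1 knockdown or of MC2580. The authors' own fold changes and p-values were not used, and no comparison of shA1 or shB2 with EV, or of MC2580 with DMSO, was made. No value per library, standard deviation or test over replicates can be given, and no order or difference below is set against replicate error. The depth of each library is unknown, and the base means of all genes summed to 40543130 in the knockdown experiment and 41201112 in the inhibitor experiment. GSE1 itself had base means of 2963 and 4441, which do not show the knockdown in single libraries. In these bulk samples, fewer cells of a type and less RNA per cell cannot be told apart.

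Of 6 promyelocyte markers, MPO, AZU1, PRTN3, CTSG and CD33 had base means between 723 and 506765 in the knockdown experiment and between 1814 and 824818 in the inhibitor experiment, while ELANE, the gene of neutrophil elastase, was at 1.10 and 3.87. Among markers of other blood cells, CD3D was at 866 and 869 and CD79A at 121 and 116, and CD3E, MS4A1 and ALAS2 lay between 0 and 2.98 in both experiments.

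The pathway was expressed almost throughout. In the knockdown experiment the base means ran from 6.25 for ABCG1 to 35450 for FASN with a median of 1844, against a median of 409 for the 17337 protein-coding genes above 0. In the inhibitor experiment they ran from 5.05 for ABCG1 to 40176 for FASN with a median of 1921, against 396 for 17091 genes. In the knockdown experiment 33 members lay above the median of the protein-coding genes and 17 above the 75th percentile, and in the inhibitor experiment 32 and 18 did. ABCG1 was the 1 member with a base mean under 50, so 35 of the 36 passed that minimum in both experiments. Together the members took 0.377% of all base means in the knockdown experiment and 0.420% in the inhibitor experiment. Across the 36 members, the log2 base means of the experiments had a Pearson's r of 0.99 and a Spearman's rho of 0.98, given as a description over genes, which share libraries and lengths and are not replicates.

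**Figure D1:**
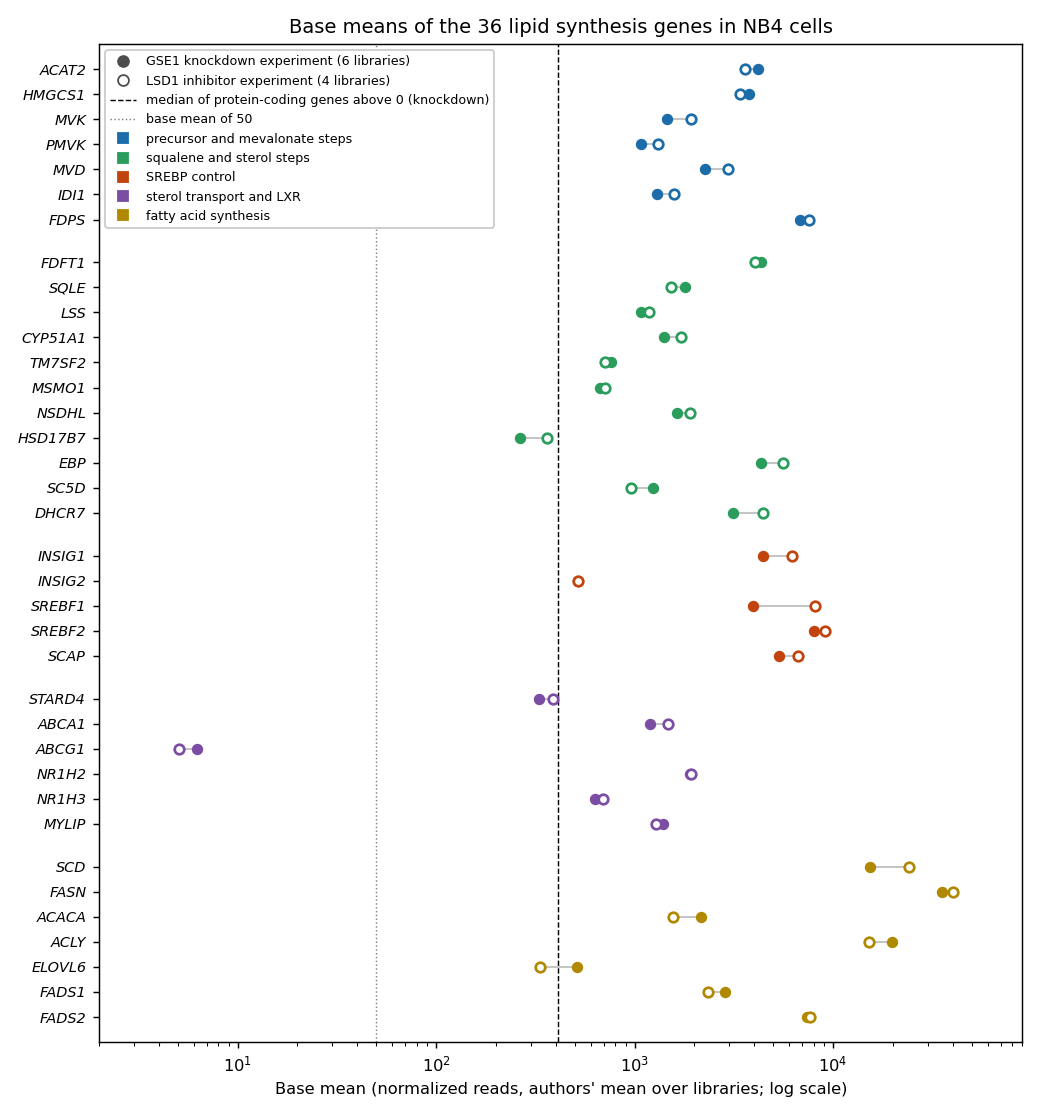
Base mean of each of the 36 genes (horizontal axis, normalized reads on a log scale) in the knockdown experiment (filled circles, mean over 6 libraries) and the inhibitor experiment (open circles, mean over 4 libraries), with no error bars because no value per library was used; colours mark the role groups, the dashed line the median of protein-coding genes in the knockdown experiment (409) and the dotted line a base mean of 50. All genes but ABCG1, at 6.25 and 5.05, lie to the right of the base mean of 50, and FASN, at 35450 and 40176, lies farthest to the right.

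Among the precursor and mevalonate steps, FDPS had the highest base mean in both experiments. ACAT2, which joins 2 molecules of acetyl-CoA, had base means of 4177 in the knockdown and 3596 in the inhibitor experiment. HMGCS1, the cytosolic HMG-CoA synthase, followed at 3762 and 3391. Both of these first enzymes were thus a little lower in the inhibitor experiment. The kinases MVK and PMVK, which add phosphates to mevalonate, were at 1448 and 1934 and at 1076 and 1314. MVD, which decarboxylates the product, was at 2269 and 2954, and the isomerase IDI1 was at 1290 and 1585. FDPS, which makes farnesyl diphosphate, the branch point to sterols and to prenylated proteins, was at 6789 and 7530. From MVK onward every enzyme of this stretch had the higher base mean in the inhibitor experiment, but the experiments were normalized separately. Relative to the median ratio of all protein-coding genes, given further below, 0 of these 7 genes differed by more than 1.5-fold. Over all protein-coding genes, 8.38% were higher and 10.1% lower by that much.

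Among the 11 squalene and sterol steps, FDFT1 and EBP were the most abundant and HSD17B7 the least in the knockdown experiment. FDFT1, the squalene synthase, had base means of 4353 and 4029, and SQLE, the squalene epoxidase, of 1791 and 1517. LSS, which closes the ring system to lanosterol, was at 1078 and 1188. The demethylation steps followed, with CYP51A1 at 1404 and 1708, MSMO1 at 666 and 709, and NSDHL at 1634 and 1910. TM7SF2, a sterol reductase, was at 759 and 711. EBP, the sterol isomerase, was at 4346 and 5624, SC5D, the desaturase after it, at 1236 and 964, and DHCR7, the last reductase of the list, at 3150 and 4456. HSD17B7, a ketosteroid reductase, was at 265 and 362, and a pseudogene of it, HSD17B7P2, was counted at 61.4 and 68.1, so that the assignment of reads between these near-identical copies is uncertain. The sum over both pseudogenes of HSD17B7 was 23.3% of its own base mean in the knockdown experiment and 18.8% in the inhibitor experiment. Of the other 4 members with a pseudogene of their name in the tables, FDPS, CYP51A1, SCD and FADS2, none had a sum over 0.254% of its own base mean.

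Among the SREBP control genes, SREBF2, which encodes the SREBP known mainly for sterol genes, had base means of 7990 and 9145. SREBF1, which encodes the SREBP forms known mainly for fatty acid genes, had base means of 3962 and 8108. SREBF1 was the member that differed most between the experiments, and SREBF2 differed far less. SCAP, the escort of both, was at 5315 and 6641. INSIG1, which retains SCAP in the endoplasmic reticulum, and is itself an SREBP target, was at 4444 and 6233, whereas its paralogue INSIG2 was at 519 and 518.

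The sterol transport and LXR genes were the lowest group, with a median base mean of 912 in the knockdown and 992 in the inhibitor experiment. NR1H2, the gene of LXRβ, was at 1897 and 1931, and NR1H3, the gene of LXRα, at 632 and 695. Of the LXR targets, ABCA1, which loads cholesterol onto apolipoprotein A-I, was at 1192 and 1466, and MYLIP, a ubiquitin ligase that removes lipoprotein receptors, was at 1398 and 1288. ABCG1, an exporter to high-density lipoprotein and often named beside ABCA1, was nearly silent at 6.25 and 5.05. STARD4, which moves sterol between membranes, was at 328 and 386.

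The fatty acid synthesis genes held more reads than the other groups, with 54.7% of the members' summed base means in the knockdown experiment and 52.7% in the inhibitor experiment. These shares are not corrected for transcript length, so they are shares of reads and not of transcripts. Per kb of the longest annotated transcript, the median of this group was 1458 in the knockdown and 1517 in the inhibitor experiment. That of the SREBP control genes was 1249 and 1605. FASN, the fatty acid synthase, with a long transcript of 8464 bases, alone made up 23.2% of the summed base means in each experiment. ACLY, which makes cytosolic acetyl-CoA from citrate, had base means of 19872 and 15121. SCD, the stearoyl-CoA desaturase, had base means of 15374 and 24071, so ACLY stood above SCD in the knockdown experiment and below it in the inhibitor experiment. ACACA, the acetyl-CoA carboxylase between ACLY and FASN, was far lower at 2159 and 1564. FADS2 and FADS1, the desaturases of polyunsaturated fatty acids, were at 7395 and 7695 and at 2870 and 2336. ELOVL6, which lengthens saturated chains, was the lowest of the group at 513 and 333.

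Since longer transcripts give more reads, levels of different genes were compared as base mean per kb of the longest annotated transcript. On this scale, the first 5 members of the knockdown experiment were ACLY at 4602, FASN at 4188, EBP at 3864, FDPS at 3366 and SCD at 2931 per kb. In the inhibitor experiment these same 5 genes led with EBP at 4999, FASN at 4747, SCD at 4589, FDPS at 3733 and ACLY at 3502 per kb. The last 4 were in both experiments ABCG1, STARD4, ELOVL6 and HSD17B7, from 1.80 to 85.8 per kb in the knockdown and from 1.45 to 117 per kb in the inhibitor experiment. FASN, with a transcript of 8464 bases, thus stood second in both experiments on this scale, and ACACA, with 10013 bases, was at 216 and 156 per kb. The leading gene depended on the length used. FDPS came first in both experiments with the length of the MANE Select transcript, the 1 reference transcript agreed for each gene. SCD came first with coding lengths, where FASN ranked 7 in the knockdown and 6 in the inhibitor experiment. The first 5 thus changed with coding lengths. The last 4 changed too, since STARD4 ranked 30 and 28 of the 36 with coding lengths and ELOVL6 ranked 28 and 32. With coding lengths ACACA, at 33 and 34, ranked below ELOVL6, and ABCA1 ranked 35 in both experiments. With MANE Select lengths HSD17B7 ranked 31 and 29. The median of protein-coding genes above 0 was 104 per kb in the knockdown and 99.2 per kb in the inhibitor experiment.

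Paralogues were set side by side on the same per-length scale. INSIG1 exceeded INSIG2 by 10.5-fold in the knockdown experiment and by 14.7-fold in the inhibitor experiment. NR1H2 exceeded NR1H3 by 2.28-fold and 2.11-fold. SREBF2 exceeded SREBF1 by 1.73-fold per kb in the knockdown experiment, while in the inhibitor experiment SREBF1 stood 1.03-fold above SREBF2. That near-equality turned to 1.06-fold in favour of SREBF2 when the MANE Select length was used. FADS2 exceeded FADS1 by 2.22-fold and 2.83-fold per kb, and by 3.64-fold and 4.65-fold with MANE Select lengths, since the longest FADS2 transcript has 5073 bases and the MANE Select one 3091. ABCA1 exceeded ABCG1 by 63.6-fold and 96.9-fold per kb, with ABCG1 close to the floor of the measurement.

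Gene positions were read from GENCODE release 44 on GRCh38, the hg38 build that the authors mapped to. SREBF1 (ENSG00000072310.17) lies on the minus strand of chromosome 17 from 17810399 to 17837002 and its MANE Select transcript has 19 exons. SREBF2 (ENSG00000198911.12) lies on the plus strand of chromosome 22 from 41833105 to 41907306, also with 19 exons. SCD (ENSG00000099194.6) lies on the plus strand of chromosome 10 from 100347233 to 100364826 with 6 exons. FADS1 (ENSG00000149485.18, chromosome 11, 61799627 to 61829318, minus strand) lies within the span of FADS2 (ENSG00000134824.14, chromosome 11, 61792980 to 61867354, plus strand), and exons of the pair share 490 bases. The library kit named in the labels does not mark the strand, so reads from such bases cannot be told apart. Exons of genes on the opposite strand covered 37.7% of the exon bases of HMGCS1, 22.2% of those of ACAT2, 22.1% of those of NR1H2 and 18.6% of those of FDPS. On the same strand, AC000120.2 covered 68.2% of the exon bases of CYP51A1 but had base means of only 2.53 and 0.575, and AF196969.1 covered 36.4% of those of EBP at base means of 8.68 and 8.69.

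RefSeq promoters on GRCh38.p14, 250 bases before to 50 after each annotated start, were found for 31 of the 36 members, in 44 windows because some genes have several starts. ABCG1, ACAT2, FASN, FDFT1 and SQLE had none in the table. The sterol regulatory element, the site at which SREBPs bind, was searched as TCACNCCAC on both strands, and 1 member promoter held it, that of SREBF2, against 1.13% of all 35116 promoters. An exact search for 1 pattern in windows of 300 bases passes over variant sites and sites outside the window. The lack of a match therefore does not show that a member lacks the element. A longer form, which adds an A before these letters and fixes a C at the open position, was also present in the SREBF2 promoter and in 0.0456% of all promoters. Allowing 1 mismatch to the longer form, a search chosen after seeing these counts, added ACLY, and 1.70% of all promoters held such a match. Both windows are shown because SREBF2 was the member with the exact element and ACLY the member with 1 mismatch to the longer form. The match is in capitals and the flanks are in lower case:
SREBF2, chr22:41832963-41832988, plus strand: gacgcgccATCACCCCACgcaccgct
ACLY, chr17:41919197-41919222, minus strand: cccggcccATCTCCCCACccggggcc
The SREBF2 match lies 134 to 125 bases before the start of the gene, outside SREBF2 and within an exon of SREBF2-AS1 on the opposite strand. The ACLY match differs from the pattern by A4T, counted from 1 at the 5′ end of the pattern, and lies 192 to 183 bases before a RefSeq start, within the span that GENCODE gives to ACLY and outside its exons.

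The CCAAT box, CCAAT on either strand, and the GC box, GGGCGG on either strand, are the letters bound by NF-Y and Sp1, known partners of SREBPs. CCAAT was held by 26 of the 44 member promoters, or 59.1%, against 34.6% of all promoters. GGGCGG was held by 38, or 86.4%, against 44.95%, and both together by 23, or 52.3%, against 14.4%. Counted by gene, 22 of 31 members had a CCAAT and 30 of 31 a GGGCGG, with NSDHL as the exception, against 42.3% and 65.3% of the 14906 protein-coding genes with a promoter in the table. Both boxes in the same promoter were found for 20 of 31 members, or 64.5%, against 24.6% of these genes. The E-box CACGTG was in 6 member promoters, or 13.6%, against 7.26%. The LXR element DR4, a spaced direct repeat of AGGTCA, was in 0 of the 44, against 7 of all 35116 promoters, or 0.0199%. An exact match this rare gives no information on 44 windows. These matches describe the letters of the windows and were not tested.

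The experiments were then set side by side as the log2 ratio of base means, inhibitor over knockdown experiment, relative to the median ratio of the 10916 protein-coding genes whose base means reached 50 in each experiment. The tables were normalized separately. Transduction, knockdown, drug, time of harvest and any difference between sequencing runs cannot be told apart in this ratio. Of the 35 members that passed the minimum, 24 had a ratio above 0 and 11 below, against 50% of all genes above 0, where the centring sets that share. The median was 0.22, the ratio of FDPS, but it was 0.13 when the ratios were scaled by the table sums and 0.14 when scaled by the sums without MPO. With median centring, the quartiles of the members were -0.05 and 0.38, whereas the quartiles of all genes were -0.29 and 0.28. A ratio past 1.5-fold was seen for 2 members in the higher direction and for 0 in the lower, while over all protein-coding genes 8.38% were higher and 10.1% lower by that much. The 2 members past 1.5-fold are 5.71% of the 35, under the share of all genes. Without centring, 6.23% of all genes were higher and 12.7% lower, and 23 members stayed above 0.

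SREBF1 and SCD were the members past 1.5-fold. Relative to the median ratio of all genes, SREBF1 was 2.15-fold higher in the inhibitor experiment (log2 ratio 1.10) and SCD 1.64-fold higher (log2 ratio 0.72). Just short of the line stood DHCR7 at 1.48-fold, INSIG1 at 1.47-fold and HSD17B7 at 1.43-fold. At the other end, ELOVL6 had a log2 ratio of -0.55, ACACA of -0.40 and ACLY of -0.33, and none of these reached 1.5-fold, although ELOVL6 did when the ratios were left uncentred.

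By role, all 5 SREBP control genes had ratios above 0, with a median of 0.39, although INSIG2, at 0.07, fell just below 0 when the ratios were left uncentred. Ratios above 0 were found for 5 of the 7 precursor and mevalonate genes, with a median of 0.36, and for 7 of the 11 squalene and sterol genes, with a median of 0.21. The sterol transport and LXR genes had 4 of 5 above 0 and a median of 0.21. The fatty acid synthesis genes were split, with SCD, FASN and FADS2 above 0, ACLY, ACACA, ELOVL6 and FADS1 below 0, and a median of -0.23. The SREBF1 and SCD ratios therefore stood beside ratios of the opposite sign in the enzymes just before FASN.

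A list of 22 other genes of the pathway, which act in SREBP cleavage, sterol storage and trafficking, LXR partnership, fatty acid elongation and precursor supply, all passed the minimum. Of these, 7 had ratios above 0 and 15 below, with a median of -0.17. ME1, the malic enzyme that supplies NADPH, had a log2 ratio of -1.34 and FADS3 of -1.09, and 0 genes of the list passed 1.5-fold in the higher direction, where 8.38% of all genes did. The 2 lower genes are 9.09% of the list, near the 10.1% of all genes. MBTPS1 and MBTPS2, the proteases that release SREBPs, had ratios of -0.22 and -0.48.

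Of the 6 promyelocyte markers, 4 were also higher in the inhibitor experiment, with log2 ratios of 0.77 for MPO, 1.40 for AZU1, 0.86 for PRTN3 and 0.75 for CTSG. CD33 had a ratio of 0.00, with ELANE under the minimum in both experiments. Their part in the ratios of the lipid genes was not tested.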

How the data were processed

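The authors prepared libraries with the TruSeq RNA v2 kit, mapped reads to hg38 with STAR (version 2.7 in the submitters' processing notes), counted reads per gene by RSEM and tested with DESeq2. The versions of RSEM and DESeq2 and the annotation release are not given in the sources used here. The signal values deposited by the authors and used here are base means, 1 per gene and experiment. In the knockdown table the base mean columns of both hairpins are equal, so 1 was read. The other columns hold the authors' own comparisons (log2 fold changes, standard errors, Wald statistics, p-values and adjusted p-values) and were not used. The planned edgeR test was not run because it needs a count for each library, and only means over libraries were at hand. The depth per library is unknown, and no interval was computed.

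Tables were read with pandas 2.3.3 in Python 3.11.15. A base mean of at least 50, a 1.5-fold line and median centring were used for ratios, and GENCODE release 44 for lengths, which 99.8% of the protein-coding genes above 0 had. All 36 members are named. The members and lists were chosen with earlier results of these data known. The alternatives tried were other minimums, folds, scalings, lengths and patterns.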

Additional observations from a re-analysis of the deposited data

How the results depend on the processing

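These values have no replicate error, so an alternative could only be read by how far it moved them. The members took 0.383% and 0.428% of the base means of protein-coding genes alone, in the knockdown and the inhibitor experiment. The median log2 ratio of the members stayed above 0 at 0.19 with no minimum base mean, 0.15 without centring, 0.13 when scaled by the table sums and 0.14 when scaled by the sums without MPO, an alternative added after seeing the data. Of the 2 members past 1.5-fold in the higher direction, 1 (SREBF1) was left at 2-fold, where 1.02% of all protein-coding genes were higher and 2.67% lower. In the lower direction the count went from 0 to 1 (ELOVL6) without centring, when scaled by the table sums, and when scaled by the sums without MPO. Over all protein-coding genes, 12.7%, 13.6% and 13.1% were lower past 1.5-fold in these settings. The sterol regulatory element was found in 2 members when 1 mismatch to the longer pattern was allowed, also added later. With a minimum base mean of 50, 13 members lay above the 75th percentile in the knockdown and 14 in the inhibitor experiment. By base mean per kb, 19 and 21 did, against 17 and 18 in the main setting. These counts, the first 10 by base mean per kb and the search for the longer exact pattern moved by less than 1.5 times. No paired analysis was possible because the values used are means over all libraries of an experiment, which also left no replicate to leave out.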
